A study of Homo sapiens with 16 samples.

Results

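The 26 genes described here encode the enzymes that build cholesterol from acetyl-CoA and the proteins that control their transcription through the sterol regulatory element-binding proteins (SREBPs). They were chosen by name for the roles of their products, with earlier results of these data known. All 26 were found among the 28951 genes of the deposited table and passed the filter on low values. RNA was measured in H460, H1703, HCC827 and H441, human non-small cell lung cancer cell lines, each grown in RPMI with 10% FBS and treated 1 day after plating. Each line was given DMSO (vehicle) or, for 48 h, 5 µM MYCi975, which inhibits MYC, a transcription factor, together with 25 µM TMP195, an inhibitor of class IIa histone deacetylases. The pair is called the combination below. The series describes H460 and H1703 as responsive and HCC827 and H441 as non-responsive, and the single agents were not analysed here. Each of the 8 groups had 2 libraries. Nothing in the labels says that these came from separate cultures, so p-values measure the spread between these libraries, which may be technical. A class is 2 lines, and a class difference is tested against that same spread, not against the spread between lines.

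Cells make cholesterol when the membrane of the endoplasmic reticulum holds little of it. SREBP-2, from SREBF2, and SREBP-1, from SREBF1, are held there by SCAP, and the INSIG proteins keep SCAP in place while sterols are plentiful. When sterols fall, SCAP carries the SREBPs to the Golgi, where they are cut, and the released part enters the nucleus and switches on the genes of the pathway, commonly beside the factors NF-Y and Sp1. INSIG1 is itself a target of this system, so its mRNA is widely used as a readout of it, whereas INSIG2 responds little to sterols. SREBP-1 is better known for driving fatty acid synthesis. Cultured cells draw on this pathway and on cholesterol from serum for new membrane.

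The libraries held 8493271 to 13604150 reads in the listed genes, and replicate libraries correlated at 0.976 to 0.985 across genes, which are not independent replicates. Levels are given as normalised reads, the reads per gene divided by a size factor for the library's depth, and a change is the treated minus the untreated value on the log2 scale of the table, with a standard error from a limma fit of all 16 libraries. That scale is compressed for genes of few reads, so it understates their change. A gene was called when its p-value, adjusted by Benjamini and Hochberg over the 23968 genes tested, was under 0.05. Line markers matched the labels in part. EGFR reached 128272 to 136029 normalised reads in HCC827 and at most 5337 elsewhere, and PDGFRA reached 4696 to 11368 in H1703 and at most 1.09 elsewhere. NKX2-1 was at 403 to 1759 in HCC827 and H441 and at most 5.84 in the other lines, while SFTPB, a surfactant gene, did not pass 97.7 in H441. The epithelial marker EPCAM was at 0 to 8.80 in H460 and H1703. In H1703 the epithelial keratins were low too, with KRT8 at 56.5 to 74.1 and KRT18 at 145 to 195. In H460 they were not, with KRT8 at 17082 to 20062 and KRT18 at 3722 to 5308. Markers of other cells were low, with PECAM1 at most 10.1 and COL1A1 at most 133.

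The stretch before the gene start was available in RefSeq (GRCh38.p14) for 23 of the 26 genes and not for ACAT2, FDFT1 and SQLE. In the 250 bases before the start, searched on both strands, CCAAT, the box bound by NF-Y, was present in 15 of 23 genes (65.2%) and in 32% of all 35116 promoters of that length. GGGCGG, an Sp1 box, was present in 20 (87%) against 42.6%. CACGTG, the E-box that MYC and other factors bind, was present in 3 (13%), INSIG1, SC5D and SCAP, against 6.34%. The sterol regulatory element in the form TCACNCCAC was present in 1 (4.35%), SREBF2, against 0.883%. A match is only a string of letters, and a missing match says nothing of the factor. The motifs shared no position with each other, but 2 Sp1 boxes overlap in INSIG1 and 2 CCAAT boxes in NSDHL. Some of these stretches are printed 5′ to 3′ on the gene's strand because they show the range among the members: SREBF2 holds the sterol element, MVK holds 5 CCAAT boxes, INSIG1 had the largest fall in H460 and HCC827, and INSIG2, its relative, has no CCAAT box and was called in no line. Capitals mark CCAAT on either strand (read as ATTGG on the printed one) and, in SREBF2, also the sterol element 133 to 125 bases before the start. They lie at chr22:41832855-41833104, chr12:109573544-109573793, chr7:155297628-155297877 and chr2:118088221-118088470, in that order and all on the plus strand. GENCODE 29, used for gene spans here, begins each of the 4 genes somewhat upstream of the RefSeq start. For IDI1, on the minus strand, the RefSeq stretch (chr10:1056705-1056954) lies wholly upstream of the GENCODE span, which ends at 1049170. It may thus not be the promoter of the counted gene.
SREBF2: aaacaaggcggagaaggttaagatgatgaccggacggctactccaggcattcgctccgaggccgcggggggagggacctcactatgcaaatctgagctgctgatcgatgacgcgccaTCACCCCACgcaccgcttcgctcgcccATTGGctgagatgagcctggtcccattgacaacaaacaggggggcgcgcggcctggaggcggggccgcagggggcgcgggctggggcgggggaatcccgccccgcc
MVK: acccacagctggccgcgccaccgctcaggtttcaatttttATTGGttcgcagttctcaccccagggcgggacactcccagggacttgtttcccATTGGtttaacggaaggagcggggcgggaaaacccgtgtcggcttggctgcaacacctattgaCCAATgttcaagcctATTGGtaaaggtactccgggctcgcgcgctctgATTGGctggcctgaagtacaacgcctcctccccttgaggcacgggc
INSIG1: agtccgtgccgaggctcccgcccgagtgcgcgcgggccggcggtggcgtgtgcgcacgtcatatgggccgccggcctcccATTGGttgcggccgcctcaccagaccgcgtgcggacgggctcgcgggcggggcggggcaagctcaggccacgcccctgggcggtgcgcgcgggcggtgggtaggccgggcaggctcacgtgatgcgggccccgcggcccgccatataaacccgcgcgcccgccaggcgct
INSIG2: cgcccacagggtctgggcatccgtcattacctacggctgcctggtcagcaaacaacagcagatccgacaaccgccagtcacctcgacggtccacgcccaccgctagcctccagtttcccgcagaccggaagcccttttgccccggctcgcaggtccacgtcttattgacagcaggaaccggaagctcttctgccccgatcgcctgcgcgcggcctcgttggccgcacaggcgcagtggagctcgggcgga

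Most transcripts of the pathway fell in H460 and HCC827, fewer of them in H1703, and hardly any in H441. In H460, 19 of the 26 genes were lower and 1 was higher, with a median change of -1.08 (of all genes tested 26.7% were called, 12.6% lower and 14.1% higher, with a median of 0.05). In H1703, 15 were lower and none higher, with a median of -0.44 (of all genes 35.5% were called, 17.6% lower and 17.9% higher). In HCC827, a line the series calls non-responsive, 19 were lower and none higher, with a median of -0.74, while of all genes 9.92% were called there, 5.5% lower and 4.42% higher. In H441 only SREBF1 was called lower, with a median over the 26 genes of -0.03 that was 0.02 without H441 Vehicle 2 and near 0 without H441 Combo 2 (of all genes 4.63% were called, 1.86% lower and 2.77% higher). In the mean of the responsive lines 21 genes were lower and 2 higher, where of all genes 38.5% were called, 17.9% lower and 20.6% higher. In the mean of the non-responsive lines 17 were lower and none higher, beside 12.3% of all genes called, 6.05% lower and 6.25% higher. The mean of all 4 lines had 21 lower and INSIG2 higher (35.2% of all genes called, 16.7% lower and 18.4% higher). Of the 26 genes, 13 were called lower in at least 3 of the 4 lines, against 2.97% of all genes tested. SREBF1 alone was called lower in all 4, against 0.384%. The list was chosen with earlier results of these data known, so these shares are a description. With each library centred on its median gene, the median of all genes moved from 0.05 to -0.15 in H460 and from 0.08 to -0.16 in H1703, and that of the 26 genes from -1.08 to -1.28 and from -0.44 to -0.69, with 18 of them lower in H1703. The calls over all genes in H460 then moved from 3370 higher and 3028 lower to 2173 and 4495, and in H1703 from 4283 higher and 4217 lower to 2626 and 5824. In RNA from a whole culture, fewer expressing cells and less RNA per cell cannot be told apart.

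Summed over the 26 genes, H460 libraries had 14950 and 16479 normalised reads with vehicle and 6154 and 7768 with the combination. The sums in H1703 were 10501 and 10563 with vehicle and 6879 and 7063 with the combination. In HCC827 they were 12635 and 13575 with vehicle, then 7160.3 and 6702. The 3 lines thus started from different totals and ended with group means of 6961 ± 1141 in H460, 6971 ± 130.1 in H1703 and 6931 ± 324 in HCC827 (SD, n = 2). In H441 the libraries had 15796 and 17093 with vehicle and 15139 and 14720.3 with the combination, so treated and untreated libraries lay close to each other. As a share of the vehicle mean, the treated sum was 44.3% in H460, 52.9% in HCC827, 66.2% in H1703 and 90.8% in H441. Over the 20 enzyme genes alone these shares were 42.1%, 51.2%, 63.2% and 97.2%, in the same order. A sum weights the abundant genes most.

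**Figure D1:**
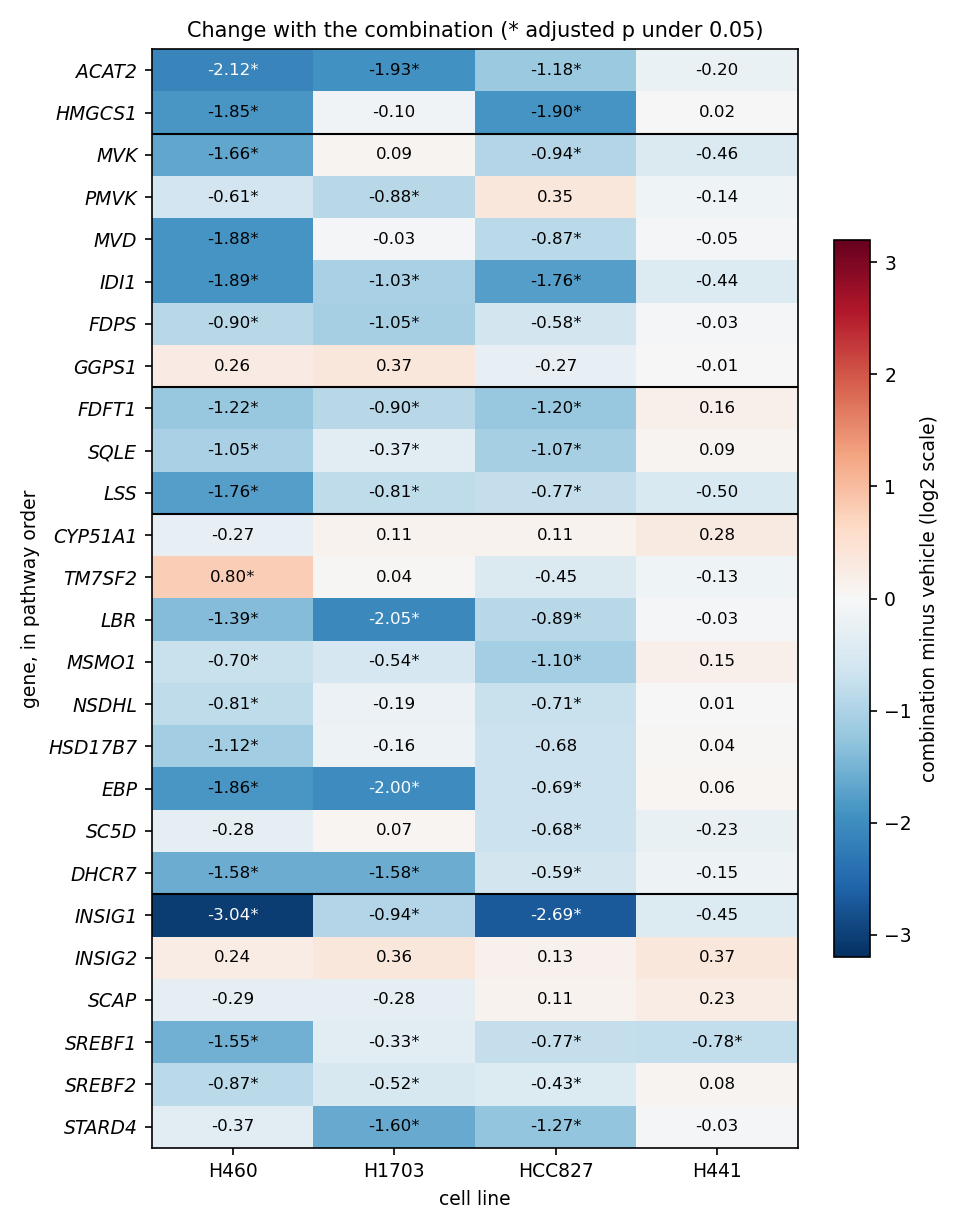
Change with the combination for the 26 genes (rows, in pathway order, with lines between the roles) in the 4 cell lines (columns), as combination minus vehicle on the log2 scale. Blue is lower and red is higher, and a star marks an adjusted p under 0.05 in the limma fit. The H441 column holds 1 starred gene, SREBF1, against 20 in H460, 15 in H1703 and 19 in HCC827.

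The pathway opens with ACAT2, which joins acetyl-CoA units in the cytosol, and HMGCS1, which adds the next unit to make HMG-CoA. ACAT2 had 587 and 517 normalised reads with vehicle and 104 and 149 with the combination in H460, and 439 and 482 against 121 and 116 in H1703. In HCC827 it had 341 and 344 against 180.0 and 125, and in H441 349 and 349 against 316 and 291. The treated libraries lay below the untreated ones in each line, but in H441 by little. Its changes were -2.12 ± 0.16 in H460 (adjusted p = 5.12e-09), -1.93 ± 0.16 in H1703 (1.17e-08) and -1.18 ± 0.16 in HCC827 (7.99e-05), beside -0.20 ± 0.16 in H441 (0.607).

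HMGCS1 (chromosome 5, 43289395 to 43313512) divided the lines in another way. In H460 it went from 991 and 1075 normalised reads to 269 and 299, and in HCC827 from 1384 and 1511 to 396 and 375. In H1703 it had 1609 and 1600.2 with vehicle and 1468 and 1526 with the combination, and in H441 1122 and 1182 against 1245 and 1100.3. The level left was similar in H460 (27.5%) and HCC827 (26.7%), while H1703 kept 93.3% and the libraries of H441 overlapped. The changes were -1.85 ± 0.09 in H460 (adjusted p = 7.48e-12), -1.90 ± 0.09 in HCC827 (1.03e-10), -0.10 ± 0.09 in H1703 (0.427) and 0.02 ± 0.09 in H441 (0.982). The response of H460 minus that of H1703 was -1.75 ± 0.13 (adjusted p = 6.93e-09), and that of HCC827 minus that of H441 was -1.92 ± 0.13 (8.72e-08). With each library centred on its median gene, HMGCS1 was called lower in H1703 too, at -0.34 (adjusted p = 0.00609).

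Of the 6 genes that lead from mevalonate to the isoprenoid diphosphates, 5 were called lower in H460, 4 in HCC827, 3 in H1703 and none in H441. The shares of all genes called lower were 12.6%, 5.5%, 17.6% and 1.86%, in that order of lines. MVK and PMVK add phosphates to mevalonate, MVD turns the product into isopentenyl diphosphate, IDI1 isomerises it, FDPS joins units to farnesyl diphosphate, and GGPS1 extends that to geranylgeranyl diphosphate. MVD went from 136 and 131 normalised reads to 26.5 and 44.5 in H460 and from 261 and 282 to 164 and 132 in HCC827. In H1703 it had 113 and 109 against 106 and 112, and in H441 244 and 272 against 249 and 249.7. MVK was much like it, with 148 and 190.4 against 46.9 and 55.9 in H460 and 43.8 and 46.9 against 45.7 and 51.2 in H1703. Both thus followed HMGCS1, with treated H460 libraries far below the untreated ones and overlapping libraries in H1703. The changes in H460 were -1.88 ± 0.18 for MVD (adjusted p = 1.34e-07) and -1.66 ± 0.23 for MVK (1.16e-05). The difference between these lines, H460 minus H1703, was -1.85 ± 0.26 for MVD (adjusted p = 3.37e-05) and -1.75 ± 0.32 for MVK (0.000566).

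IDI1 fell in all lines but H441, most in H460, from 642 and 625 normalised reads to 148 and 192, and in HCC827, from 178 and 218 to 55.3 and 57.2. Its changes were -1.89 ± 0.16 in H460 (adjusted p = 1.19e-08), -1.76 ± 0.16 in HCC827 (3.71e-07), -1.03 ± 0.16 in H1703 (2.28e-05) and -0.44 ± 0.16 in H441 (0.118). FDPS had changes of -0.90 ± 0.09 in H460 and -1.05 ± 0.09 in H1703, beside -0.58 ± 0.09 in HCC827 and -0.03 ± 0.09 in H441. PMVK was the 1 enzyme of this stretch called lower in both responsive lines alone, at -0.61 ± 0.17 in H460 (adjusted p = 0.0118) and -0.88 ± 0.17 in H1703 (0.000401), while HCC827 had 0.35 ± 0.17 (0.24). The classes differed for PMVK by -0.85 ± 0.17 (adjusted p = 0.00102). GGPS1, the side branch that feeds protein prenylation, was called in no line, with changes from -0.27 to 0.37. Leaving out H460 Vehicle 1, H460 Vehicle 2 or H460 Combo 1 ended the PMVK call in H460 (adjusted p = 0.0523, 0.0600 and 0.0697). The MVK call in HCC827 was lost without HCC827 Vehicle 2 (0.158) or HCC827 Combo 1 (0.178), and that of MVD there without HCC827 Combo 2 (0.0817).

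**Figure D2:**
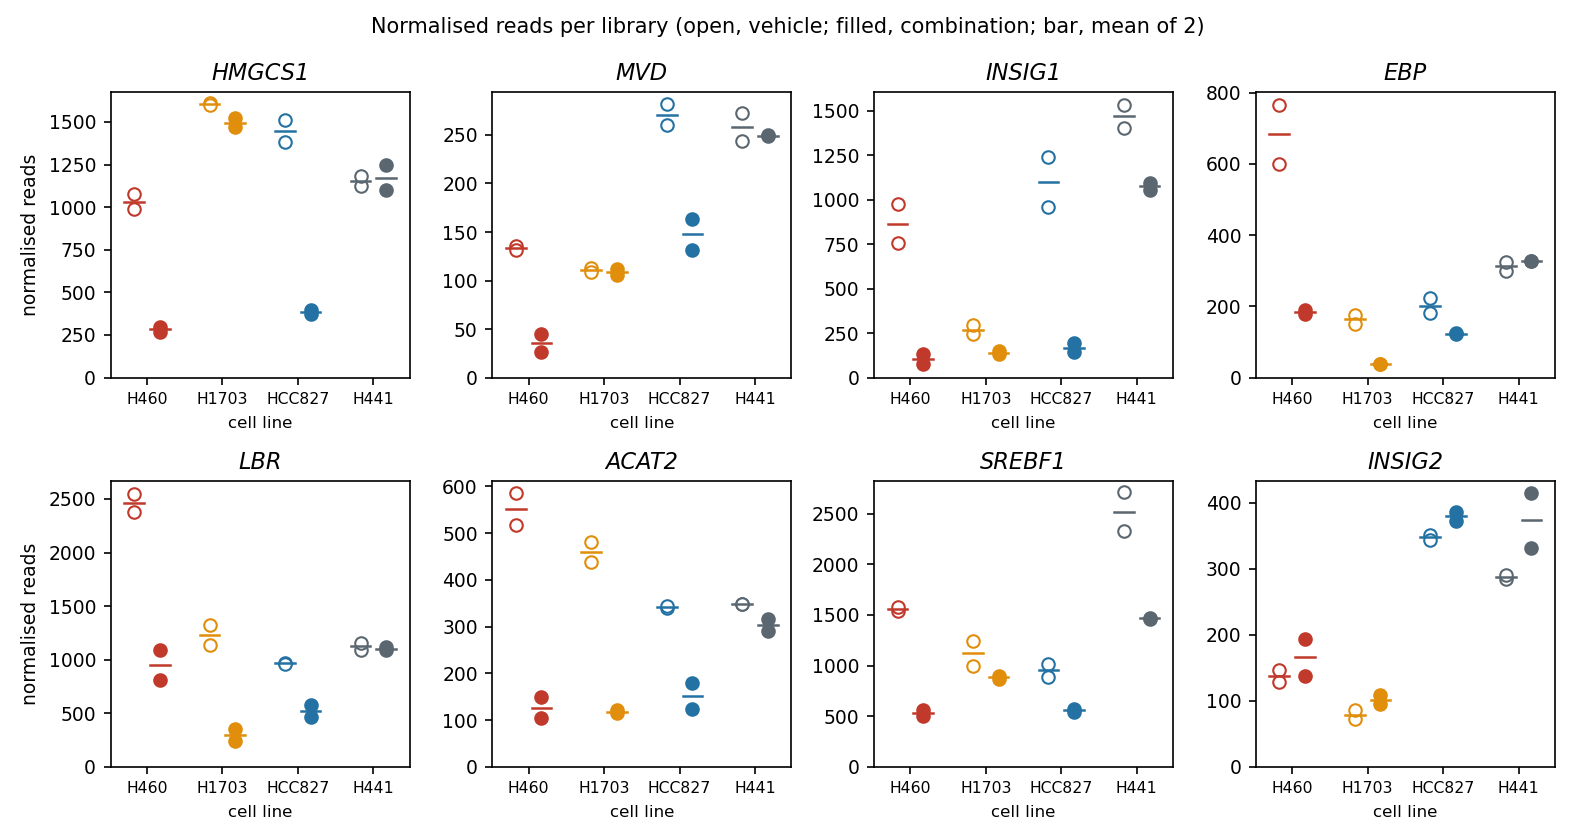
Normalised reads of 8 genes in each of the 16 libraries, by cell line (horizontal axis), with a vertical axis that starts at 0 and differs between genes. Open points are vehicle, filled points are the combination, and each bar is the mean of 2 libraries. HMGCS1 and MVD dropped in H460 and HCC827 with little change in H1703 (where HMGCS1 was called lower with median centring), EBP, LBR and ACAT2 dropped in H1703 as well, and the INSIG2 points of both treatments lie at similar heights.

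All 3 genes from farnesyl diphosphate to lanosterol were called lower in H460, H1703 and HCC827, and none in H441. Among all genes tested 12.6%, 17.6%, 5.5% and 1.86% were lower in these lines, in that order. FDFT1, squalene synthase, is the first enzyme committed to sterols. It had 1073 and 1159 normalised reads with vehicle and 423 and 538 with the combination in H460, and 411 and 427 against 239.6 and 208 in H1703. In HCC827 it had 1572 and 1540.2 against 706 and 644, and in H441 1376 and 1432 against 1606 and 1529.7. The treated H441 libraries were thus the higher ones, though not past the test. The changes were -1.22 ± 0.11, -0.90 ± 0.11, -1.20 ± 0.11 and 0.16 ± 0.11 in H460, H1703, HCC827 and H441 (adjusted p = 2.4e-08, 1e-06, 3.26e-07 and 0.498).

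SQLE, which oxidises squalene in a rate-limiting step, had changes of -1.05 ± 0.14 in H460 (adjusted p = 5.76e-06), -1.07 ± 0.14 in HCC827 (3.11e-05) and 0.09 ± 0.14 in H441 (0.846). In H1703 it had 629 and 648 normalised reads with vehicle and 497 and 493 with the combination, a change of -0.37 ± 0.14 (adjusted p = 0.043). Leaving out any 1 of the 4 H1703 libraries ended that call (adjusted p from 0.115 to 0.165) while the change stayed between -0.39 and -0.34, and quantile normalisation gave -0.23 (0.212). The call was also lost, at adjusted p from 0.0526 to 0.0529, without either vehicle library of HCC827 or of H441. LSS, which closes the rings to lanosterol, went from 191 and 199 normalised reads to 59.1 and 52.5 in H460. Its changes were -1.76 ± 0.16 in H460 (adjusted p = 4.6e-08), -0.77 ± 0.16 in HCC827 (0.00331), -0.81 ± 0.16 in H1703 (0.000401) and -0.50 ± 0.16 in H441 (0.0823), the lowest change of an enzyme gene in that line. Without HCC827 Combo 2 the HCC827 call of LSS was lost (-0.67, adjusted p = 0.0582).

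From lanosterol to cholesterol 9 genes were measured, of which 6 were called lower in H460, 6 in HCC827, 4 in H1703 and none in H441. All genes tested had shares of 12.6%, 5.5%, 17.6% and 1.86% lower, in the same order. EBP, the sterol isomerase that binds many drugs, had 599.6 and 765 normalised reads with vehicle and 191 and 178 with the combination in H460, and 176 and 151 against 38.1 and 39.4 in H1703. In HCC827 it had 223 and 180.3 against 121 and 125, and in H441 300.4 and 324 against 326 and 326. The fall was deep in both responsive lines, where 27.0% and 23.7% of the vehicle level were left, and milder in HCC827, at 61.2%. The changes were -1.86 ± 0.15 in H460 (adjusted p = 5.86e-09), -0.69 ± 0.15 in HCC827 (0.00388), -2.0 ± 0.15 in H1703 (1.41e-09) and 0.06 ± 0.15 in H441 (0.92). The classes differed by -1.62 ± 0.15 (adjusted p = 8.99e-08), the widest class difference among the 26 genes. Without HCC827 Vehicle 1 the call in HCC827 was lost (-0.54, adjusted p = 0.0851).

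LBR, the lamin B receptor, is an anchor of the nuclear envelope and also the main sterol C14 reductase of many cells. It had 2379 and 2550.2 normalised reads with vehicle and 807 and 1091 with the combination in H460, and 1138 and 1326 against 243 and 355 in H1703. In HCC827 it had 969 and 962 against 581 and 466, and in H441 1090.0 and 1157 against 1114 and 1088. H1703 lost more than H460, with changes of -2.05 ± 0.15 and -1.39 ± 0.15 that differed by 0.66 ± 0.22 (adjusted p = 0.0394), though that call was lost without H460 Vehicle 1 (0.108), H460 Vehicle 2 (0.0600), H460 Combo 2 (0.175), H1703 Vehicle 2 (0.148) or H1703 Combo 1 (0.228). TM7SF2, the second C14 reductase, was the 1 gene called higher in any line. It rose in H460 from 17.6 and 14.9 normalised reads to 30.6 and 29.6, a change of 0.80 ± 0.22 (adjusted p = 0.00858). This call of TM7SF2 was lost without H460 Vehicle 2 (0.69) and with quantile normalisation (0.57, adjusted p = 0.0546). Limma voom on the recovered reads and the limma fit of only the H460 libraries (adjusted p = 0.093) lost it too. In H441 its libraries had 293 to 366, and treated and untreated ones overlapped.

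DHCR7, which makes cholesterol from 7-dehydrocholesterol, changed by -1.58 ± 0.12 in H460 (adjusted p = 2.74e-09) and by -1.58 ± 0.12 in H1703 (1.69e-09), a difference of 0.01 ± 0.16 between these lines (0.998). It had 558 and 649 normalised reads against 183 and 218 in H460 and 317 and 306 against 95.8 and 109 in H1703. In HCC827 its change was -0.59 ± 0.12 (adjusted p = 0.00236) and in H441 -0.15 ± 0.12 (0.571). MSMO1, which removes the C4 methyl groups, had its largest fall in HCC827, by 1.10 ± 0.19 (adjusted p = 0.000835), from 382 and 434 normalised reads to 199 and 179. Its calls in H460 (-0.70) and H1703 (-0.54) were lost without H460 Vehicle 2 (adjusted p = 0.106), H460 Combo 1 (0.189), H1703 Vehicle 2 (0.285) or H1703 Combo 1 (0.336), each in the line of the library left out.

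NSDHL, a C4 decarboxylase, was called lower in H460 (-0.81 ± 0.12) and HCC827 (-0.71 ± 0.12), and its change in H1703 was -0.19 ± 0.12 (adjusted p = 0.226), or -0.43 and called with median centring (0.00731). HSD17B7, the ketoreductase of the same complex, was called in H460 alone (-1.12 ± 0.22, adjusted p = 0.000569), and HCC827 had -0.68 ± 0.22 (0.0579), which was called without H460 Combo 1 (0.0201) or H460 Combo 2 (0.0213) and by limma voom on the recovered reads (-0.69, 0.0323). SC5D, the C5 desaturase, was called in HCC827 alone, at -0.68 ± 0.10 (adjusted p = 0.000239). In H460 it had -0.28 ± 0.10 (0.0551), which was called with median centring (-0.47, 0.00268), without H460 Combo 2 (-0.42, 0.00951) and without HCC827 Combo 1 (0.0485) or HCC827 Combo 2 (0.0482). Its class difference of 0.35 ± 0.10 (0.0185) was above 0, like that of TM7SF2, with the lower mean in the non-responsive lines. That difference was lost without H1703 Vehicle 1 (adjusted p = 0.0576) or HCC827 Combo 2 (0.0557) and was 0.14 (0.425) with median centring. CYP51A1, lanosterol demethylase and a classical target of SREBP, was called in no line, and its untreated and treated libraries overlapped in all 4. It had 14 to 56 reads per library, the fewest of the list, so only a large change could have been seen. Its reads may be shared with 3 named pseudogenes and with AC000120.2 and AC000120.3, which overlap it on the same strand.

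In control and transport, 3 of 6 genes were called lower in H460, 4 in HCC827, 4 in H1703 and 1 in H441. Beside them stand 12.6%, 5.5%, 17.6% and 1.86% of all genes tested, in the same order. INSIG1 (chromosome 7, 155297776 to 155310235), which retains SCAP, had the largest change of the 26 genes in H460 and in HCC827. In H460 it went from 756 and 974 normalised reads to 76.5 and 135, and in HCC827 from 959 and 1238 to 145 and 192. In H1703 it had 243 and 297 against 148 and 130.0, and in H441 1405 and 1533 against 1093 and 1057. The treated libraries lay below the untreated ones in each line, and 12.2% of the vehicle level was left in H460, 15.3% in HCC827, 51.5% in H1703 and 73.2% in H441. The changes were -3.04 ± 0.21 in H460 (adjusted p = 1.77e-08), -2.69 ± 0.21 in HCC827 (7.67e-07), -0.94 ± 0.21 in H1703 (0.00244) and -0.45 ± 0.21 in H441 (0.300). H460 minus H1703 was -2.11 ± 0.30 (adjusted p = 0.000107), and HCC827 minus H441 was -2.24 ± 0.30 (0.00145). The fall of INSIG1 in H441 was called by limma voom on the recovered reads (-0.45, adjusted p = 0.0398).

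INSIG2, which shares the retention role, was called in no line, with 147 and 129 normalised reads against 138 and 194 in H460 and 285 and 289.7 against 415 and 331 in H441. It was called higher in H460 without H460 Combo 1 (0.49, adjusted p = 0.0424), and in H1703 (0.36) without H460 Combo 1 (0.0458) or H460 Combo 2 (0.0469). Its change was above 0 in each line, from 0.13 to 0.37, and its mean over the 4 lines was 0.27 ± 0.08 (adjusted p = 0.0104), which was 0.16 (0.147) with median centring. SCAP, the escort, was likewise called in no single line, with changes of -0.29 and -0.28 in the responsive lines and 0.11 and 0.23 in the others, and the classes differed by -0.45 ± 0.13 (adjusted p = 0.0137). With median centring SCAP was called lower in H460 (-0.48, adjusted p = 0.00962) and H1703 (-0.53, 0.00372), and it was called in H1703 without H1703 Combo 2 too (-0.43, 0.0436).

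Of the SREBP genes, SREBF1 (chromosome 17, 17810399 to 17837002) was lower in every line. It went from 1538 and 1573 normalised reads to 507 and 556 in H460, from 889.5 and 1017 to 568 and 545 in HCC827, and from 2331 and 2709 to 1464 and 1469.8 in H441. In H1703 it had 1241 and 999.8 with vehicle and 899.5 and 872 with the combination. The changes were -1.55 ± 0.10 in H460 (adjusted p = 5.68e-10), -0.77 ± 0.10 in HCC827 (4.8e-05), -0.33 ± 0.10 in H1703 (0.0154) and -0.78 ± 0.10 in H441 (0.000132). The H1703 call was lost without H1703 Vehicle 1 (-0.17, adjusted p = 0.295), H1703 Combo 1 (0.0501) or H1703 Combo 2 (0.0828) and with quantile normalisation (-0.15, 0.316), and that of H441 when only the libraries of H441 entered the fit (0.116). In that fit of H441 alone, no gene of the 23968 tested was called. SREBF2 (chromosome 22, 41833079 to 41907308) had changes of -0.87 ± 0.10 in H460 and -0.43 ± 0.10 in HCC827, smaller than those of SREBF1, and of -0.52 ± 0.10 in H1703, which was the larger of the pair there. Its change in H441 was 0.08 ± 0.10 (adjusted p = 0.77). Without HCC827 Vehicle 2 its call in HCC827 was lost (adjusted p = 0.0567).

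STARD4, a carrier that moves cholesterol between membranes, fell from 140.2 and 151 normalised reads to 50.1 and 42.6 in H1703 and from 136 and 151 to 71.8 and 46.1 in HCC827. In H460 its replicates lay far apart, at 781 and 1143 with vehicle and 501 and 1063 with the combination, and the treatments overlapped. The changes were -1.60 ± 0.27 in H1703 (adjusted p = 0.000218), -1.27 ± 0.27 in HCC827 (0.00687), -0.37 ± 0.27 in H460 (0.378) and -0.03 ± 0.27 in H441 (1). Without H460 Combo 2 it was called in H460 as well (-0.91, adjusted p = 0.00781). The HCC827 call was lost without HCC827 Vehicle 2 (0.0594) or HCC827 Combo 2 (0.103), and limma voom on the recovered reads called it in neither H1703 (adjusted p = 0.0982) nor HCC827 (0.317).

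By their calls the genes fell into few patterns. A set of 12 was lower in every line but H441: ACAT2, IDI1, FDPS, FDFT1, SQLE, LSS, LBR, MSMO1, EBP, DHCR7, INSIG1 and SREBF2. A set of 4, HMGCS1, MVK, MVD and NSDHL, was lower in H460 and HCC827 and was not called in H1703 or H441, a pattern shown by 0.355% of all genes tested. With median centring HMGCS1 and NSDHL were called lower in H1703 as well, and MVK and MVD were not. H460 and HCC827, 1 line from each class, shared 17 of their 19 lower genes each (89.5%). H460 and H1703 shared 14, which was 73.7% of the H460 set and 93.3% of the H1703 set. H1703 and HCC827 shared 14 as well, 93.3% of the H1703 set and 73.7% of the HCC827 set. Of all genes tested 12.6% were called lower in H460, 5.5% in HCC827 and 17.6% in H1703. The share of all genes lower in both lines of a pair was not counted. Across the 26 genes the changes in H460 and HCC827 had a Pearson r of 0.70 and a Spearman rho of 0.67, and those in H460 and H1703 0.48 and 0.51. Over all genes tested the same Pearson values were 0.21 and 0.34. The other pairs had, across the 26 genes, a Pearson r of 0.50 (H460 and H441), 0.41 (HCC827 and H441), 0.29 (H1703 and HCC827) and 0.14 (H1703 and H441). H460 thus correlated with H441 about as with H1703, though only SREBF1 was called in H441, so r does not measure the size of a response. These are descriptions across genes, which share their libraries and are not independent.

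**Figure D3:**
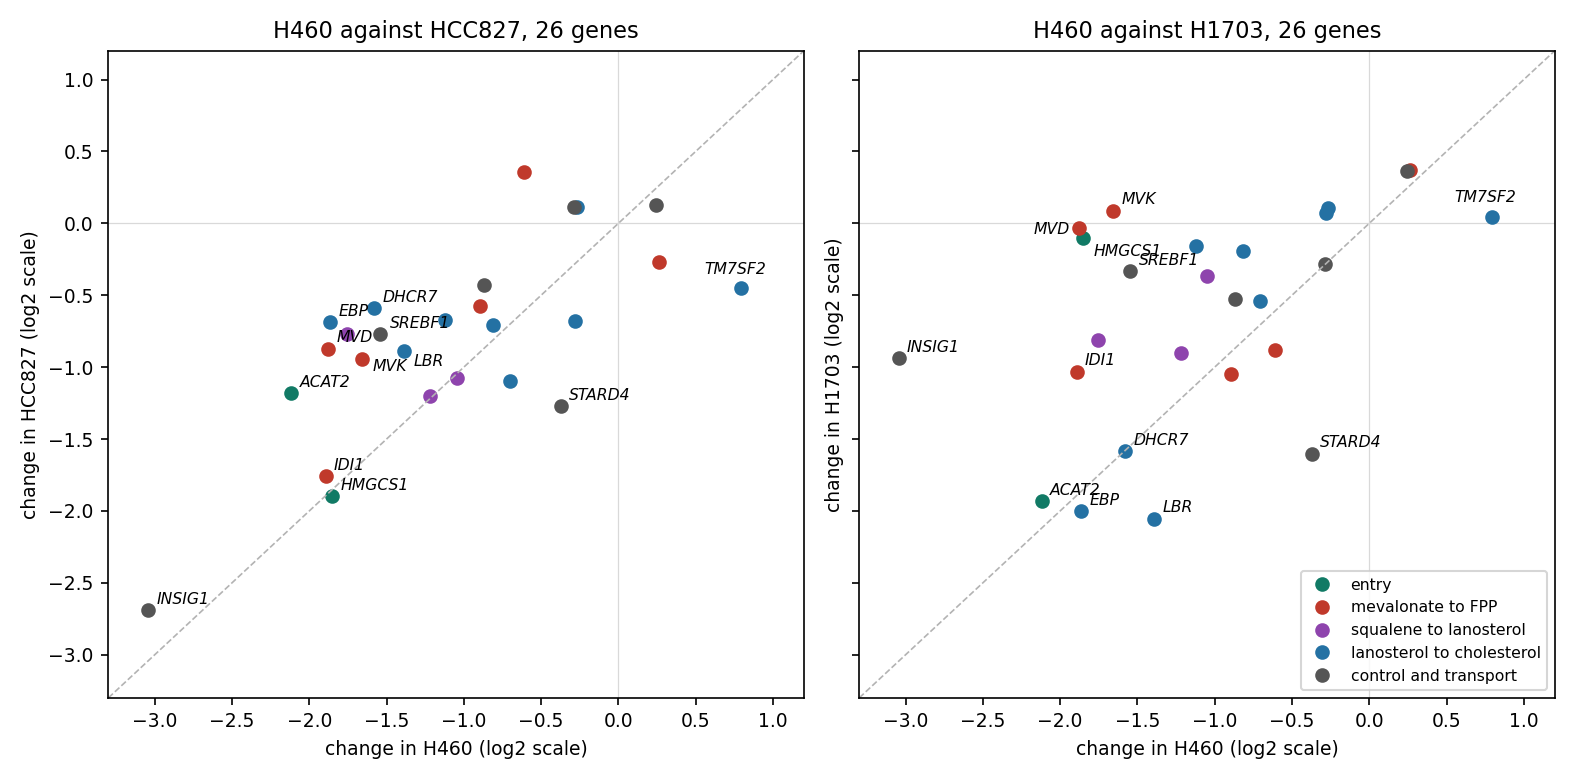
Change with the combination in H460 (horizontal axis) against HCC827 (left) and H1703 (right) for the 26 genes, on the log2 scale, coloured by role, with a dashed line where both changes are equal. Against HCC827 the genes spread along 1 band (Pearson 0.70), whereas against H1703 (0.48) HMGCS1, MVK and MVD sit near 0 on the H1703 axis and below -1.6 on the H460 axis.

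The limma F test called a difference among the 4 responses for 22 of the 26 genes (31.8% of all genes tested), and not for GGPS1, INSIG2, SCAP (adjusted p = 0.0559) and CYP51A1. The mean change of the responsive lines minus that of the non-responsive lines was called for 12 genes (23.3% of all genes, 12.1% lower and 11.2% higher), lower in the responsive lines for 10 and higher for TM7SF2 and SC5D. After EBP, the widest were ACAT2 at -1.34 ± 0.16 (adjusted p = 4.35e-06), LBR at -1.26 ± 0.15 (6.61e-06) and DHCR7 at -1.21 ± 0.12 (2.24e-07). These p-values do not measure the spread between lines of a class. INSIG1 was not called here (-0.42 ± 0.21, adjusted p = 0.184), nor was HMGCS1 (-0.04 ± 0.09, 0.814), which was called in 1 line of each class. Without H460 Combo 2 the class difference was called for INSIG1 (-0.62, adjusted p = 0.00834), MVD (-0.67, 0.00276), IDI1 (-0.45, 0.0384), STARD4 (-0.61, 0.038) and GGPS1 (0.55, 0.0462) as well. That of MVD was also called without HCC827 Combo 2 (-0.57, adjusted p = 0.0419) and that of IDI1 without H441 Vehicle 2 (-0.47, 0.0353). The call of TM7SF2 was lost without H1703 Vehicle 2 (adjusted p = 0.0568), HCC827 Vehicle 2 (0.0561) or H441 Combo 1 (0.0627). Within the responsive class, H460 and H1703 differed for 12 genes (19.1% of all genes, 7.8% lower and 11.3% higher), with H460 lower for 10 and higher for LBR and STARD4. The STARD4 difference was lost without H460 Vehicle 1, H460 Combo 2, any H1703 library or either H441 vehicle library (adjusted p from 0.0502 to 0.138). Within the non-responsive class, HCC827 and H441 differed for 10 genes, all lower in HCC827, where 2.01% of all genes differed, 1.31% lower and 0.697% higher. The last count depended on single libraries: it was 5 without HCC827 Vehicle 2, HCC827 Combo 2, H441 Vehicle 1 or H441 Combo 1, and 6 without HCC827 Vehicle 1 or H441 Combo 2.

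Before treatment the lines already differed. The F test called a vehicle difference among the lines for 24 of the 26 genes (73.4% of all genes), all but GGPS1 and CYP51A1, and the class difference was called for 20 (56.3% of all genes, 28.8% higher and 27.6% lower), higher in the responsive lines for 8 and lower for 12. Per kb of annotated exon, the scale used to compare genes, HMGCS1 led with a vehicle mean of 278 normalised reads over the 4 lines. LBR (275) and INSIG1 (254) followed, and then FDPS (223) and FDFT1 (216), while MVK (21.8) and CYP51A1 (7.20) were lowest. HMGCS1 was highest in H1703 (341) and LBR in H460 (469), and INSIG1 ran from 73.9 in H1703 to 402 in H441. The 2 sterol C14 reductases differed in level: TM7SF2 ran from 4.78 in H460 over 6.74 in H1703 and 19.7 in HCC827 to 105.5 in H441. The responsive minus non-responsive difference of TM7SF2 was -2.86 ± 0.15 (adjusted p = 2.41e-12) and that of INSIG2 -1.58 ± 0.11 (2.21e-10). Exon lengths are those of all annotated transcripts joined, so a gene read from 1 short form is understated.

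**Figure D4:**
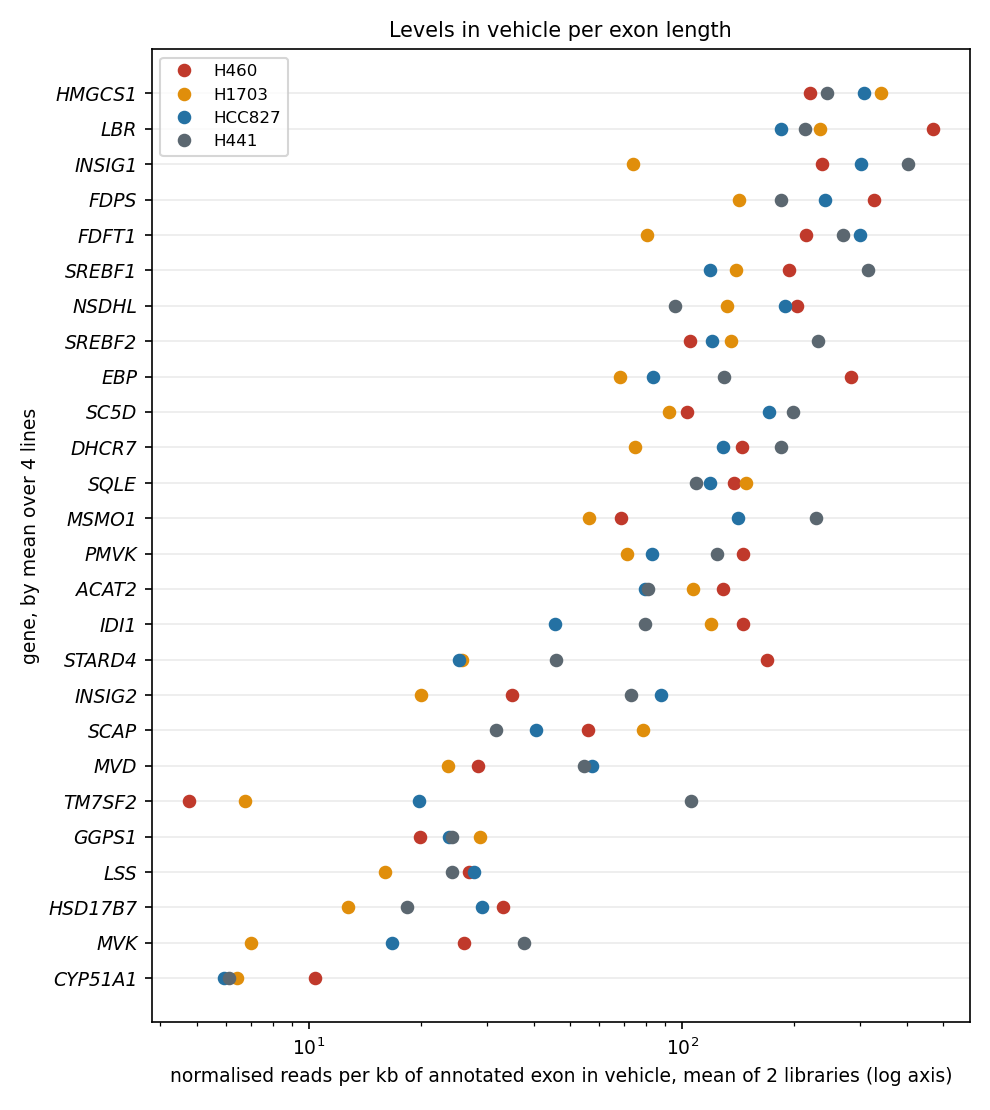
Vehicle level of each gene as normalised reads per kb of annotated exon (log axis), with 1 point per cell line, each the mean of 2 libraries, and genes ordered by their mean over the 4 lines. HMGCS1 and LBR lead and CYP51A1 is lowest, and TM7SF2 has the widest spread, from 4.78 in H460 to 105.5 in H441.

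Of the 15 genes with a CCAAT box in the 250 bases before the start, 14 (93.3%) were called lower in the mean of the 4 lines, beside 4 of the 8 (50%) without one. By line the shares with and without the box were 80% and 50% in H460, 86.7% and 37.5% in HCC827, 53.3% and 50% in H1703, and 0 of 15 genes against 1 of 8 in H441. Over all genes tested that had such a stretch and in the mean of the 4 lines, 27.0% with the box and 20.1% without it were called lower. By line these shares of all genes were 22.2% and 15.1% in H460 and 9.79% and 6.80% in HCC827. They were 28.8% and 21.1% in H1703, and 2.56% and 2.51% in H441. The 8 without it were CYP51A1, GGPS1, IDI1, INSIG2, LBR, PMVK, SCAP and SREBF1, which include the genes called in no line, as well as IDI1, LBR and SREBF1 with large falls. The stretch searched for IDI1 lies outside its counted span, so its place among these genes is uncertain. These shares are a description of a short list, with no test.

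Other genes around the pathway were taken from lists by function, and their counts are to be read against all genes tested, of which 12.6% were called lower and 14.1% higher in H460, 5.5% and 4.42% in HCC827, 17.6% and 17.9% in H1703, and 1.86% and 2.77% in H441. Among 12 genes of sterol sensing and SREBP processing, 1 was lower and none higher in H460, 1 and 1 in HCC827, 6 and 1 in H1703, and 1 and 1 in H441, so that in H460 the list had no more calls than that background. RNF145, a ubiquitin ligase that binds SCAP, went from 659 and 742 normalised reads to 131 and 174 in H1703, by -2.19 ± 0.12 (adjusted p = 2.11e-11), fell in HCC827 by 0.78 ± 0.12 (0.000179), and had -0.26 ± 0.12 in H460 (0.12) and -0.30 ± 0.12 in H441 (0.172). For RNF145, H460 minus H1703 was 1.94 ± 0.17 (adjusted p = 7.51e-08). ERLIN1, which limits SREBP processing, fell in H460 (-0.39) and H1703 (-0.98), and SPRING1, which licenses the protease that cuts SREBPs, in H1703 (-0.62) and H441 (-0.48). PAQR3, which tethers SCAP to the Golgi, rose in H1703 (0.45).

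In the isoprenoid branches (15 genes), 5 were lower and 1 higher in H460, 1 and 1 in HCC827, 7 and 2 in H1703 and none in H441. The single calls in HCC827 and the higher ones in H1703 were near the share of all genes. ICMT, which methylates prenylated proteins, fell in H460 (-0.73) and H1703 (-1.18), and the coenzyme Q genes PDSS1 (-0.91 and -1.17) and COQ2 (-0.49 and -1.19) fell in the same lines, COQ2 also in HCC827 (-0.72). DHDDS, of dolichol synthesis, rose in H460 (0.52) and HCC827 (0.38). RABGGTB, a subunit that prenylates Rab proteins, was called in no single line and rose in the mean of the 4 (0.24 ± 0.07, adjusted p = 0.00856).

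Among 14 tested genes of sterol uptake, transport and storage, 6 were lower and 3 higher in H460, 3 and none in HCC827, 2 and 3 in H1703, and none in H441. The H1703 counts were near the share of all genes. SOAT1, which esterifies cholesterol for storage, went from 1462 and 1277 normalised reads to 647 and 574 in H460 and from 1120.0 and 1249.9 to 543 and 595 in H1703, with changes of -1.16 ± 0.09 and -1.05 ± 0.09 and no call in HCC827 (0.15) or H441 (0.23). NPC1, which exports cholesterol from lysosomes, rose in the same lines, by 0.74 ± 0.08 in H460 and 1.27 ± 0.08 in H1703, from 727 and 701 to 1704 and 1753 in the latter. TMEM97, a binding partner of NPC1 and a known SREBP target, fell in H460 (-1.68 ± 0.14), HCC827 (-0.97 ± 0.14) and H1703 (-0.81 ± 0.14). MYLIP, a ubiquitin ligase for lipoprotein receptors, fell in H460 (-0.68) and HCC827 (-0.72). The sterol carriers GRAMD1A (0.75) and GRAMD1B (1.19) rose in H1703.

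Of 11 fatty acid synthesis genes under SREBP-1, 10 were lower and 1 higher in H460, 5 and none in HCC827, 6 and 1 in H1703, and 1 and 1 in H441. FASN, fatty acid synthase, fell in every line, with changes of -1.34 ± 0.09 in H460, -0.51 ± 0.09 in HCC827, -1.19 ± 0.09 in H1703 and -0.63 ± 0.09 in H441, where SREBF1 was called too. SCD, the stearoyl desaturase, went from 18006 and 19871 normalised reads to 3311 and 4155 in H460 and fell in H1703 (-1.20) and HCC827 (-1.59) too, with -0.63 ± 0.19 in H441 (adjusted p = 0.104). FADS2 was called in H460 (-2.53 ± 0.18, adjusted p = 1.95e-09) and in no other line. Of 6 genes of LXR, the nuclear receptor that drives SREBF1, 1 was higher in H460, 3 were higher and 2 lower in H1703, 1 was higher in HCC827 and 1 lower in H441. With so few genes, single calls say little of the list, and that in H460 was near the share of all genes. NR1H2, which encodes LXR beta, rose in H460 (0.61), H1703 (0.46) and HCC827 (0.31), the last barely past the limma threshold (adjusted p = 0.0499996). Its partner gene RXRA fell in H1703 (-0.52) and H441 (-0.40), while LPCAT3, an LXR target, fell in H1703 (-0.79). RXRB was called in no single line and was 0.34 ± 0.12 in the mean of the 4 (adjusted p = 0.0291).

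Several members share their locus with another gene, and the sources used here do not give the strand setting of the counting, so reads from both genes may not have been told apart. TCP1 overlaps ACAT2 on the opposite strand and changed by -0.95 in H460, -0.31 in HCC827 and -0.81 in H1703. MMAB overlaps MVK and changed by -1.41 in H460, -0.50 in HCC827 and -0.44 in H1703, all called. RUSC1-AS1 overlaps FDPS and moved like it, at -0.85 in H460, -0.66 in HCC827, -0.93 in H1703 and -0.16 in H441. IDI2-AS1 overlaps IDI1 and fell in all 4 lines, with changes from -1.36 to -1.01, including H441, where IDI1 was not called. STARD4-AS1 fell with STARD4 in H1703 (-1.96) and SREBF2-AS1 with SREBF2 in H460 (-0.96) and H1703 (-0.65). VPS51 overlaps TM7SF2 on the same strand and was called in H1703 (0.49), not in H460 (0.19). TBCE and AL391994.1 overlap GGPS1 on the same strand, and TBCE was called in no line, with changes from -0.38 to 0.11. AC000120.2 and AC000120.3 overlap CYP51A1 in the same way. Whether these overlaps bear on the lack of calls for GGPS1 and CYP51A1 was not tested. FDPS has 8 named pseudogenes and HSD17B7 has 2, so their counts are uncertain too.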

How the data were processed

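Per the labels' protocols, a NucleoSpin kit gave the RNA and a SMARTer stranded kit for total RNA the libraries. Per the submitters' processing notes, Trimmomatic, STAR and featureCounts were used with hg38 (GRCh38), and no versions or annotation release are stated. The authors deposited log2 values, gene counts scaled per library and variance-stabilised, which was read from the values themselves: turned back into reads, 100% of them were whole within 0.02. Normalised reads are these reads over the size factors.

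Genes with a mean at least 1 above the lowest value, 0.480538, were kept, which left 23968 and removed 4983. Groups came from the labels. Limma 3.58.1 in R 4.3.3 fitted 8 group means to 16 libraries, with trend and robust empirical Bayes, and p-values were adjusted over all genes tested at a threshold of 0.05 with no minimum fold. The alternatives were median centring, quantile normalisation, no filter, neither trend nor robust settings, only the lines compared, the replicate number as a block, limma voom on the recovered reads, and each library left out. The pipeline was tested on simulated data.

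Symbols, positions and exon lengths came from GENCODE 29 (28846 of 28951 IDs found). The 250 bases before the start came from RefSeq (GRCh38.p14). All 26 members are named, and from each related list up to 3 genes a direction with the largest mean change over the 4 lines among those called in it. PTPRC and CH25H, listed as marker and transport gene, were not analysed here. Members and lists were chosen with earlier results of these data known. Tables used pandas 2.3.3 and numpy 2.4.6 in Python 3.11.15, and figures matplotlib 3.10.9.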

Additional observations from a re-analysis of the deposited data

Results flagged for a closer look

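The response to the combination differed between lines or line classes, by the limma test of the difference itself, in 34 member results, and each value below is such a difference on the log2 scale. Between the classes, responsive minus non-responsive, the cholesterol enzymes of the late pathway stood at -1.62 for EBP, -1.26 for LBR and -1.21 for DHCR7. In the early pathway the differences were -1.34 for ACAT2, -0.85 for PMVK, -0.67 for FDPS, -0.54 for FDFT1 and -0.65 for LSS. The regulators SREBF2 (-0.52) and SCAP (-0.45) differed the same way, whereas TM7SF2 (0.71) and SC5D (0.35) differed the other way. Those of TM7SF2 and SC5D were lost without single libraries, such as H441 Combo 1 for TM7SF2 and H1703 Vehicle 1 for SC5D. Both were also lost with median centring, where 16 members were called lower and none higher.

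Between the responsive lines, H460 minus H1703, the widest was INSIG1 at -2.11. MVD (-1.85), HMGCS1 (-1.75) and MVK (-1.75), of the first steps, and SREBF1 (-1.22) followed. Smaller differences were HSD17B7 at -0.96, LSS at -0.95, IDI1 at -0.86, SQLE at -0.68 and NSDHL at -0.62. LBR (0.66) and STARD4 (1.23) were lower in H1703. The calls of INSIG1, MVD, HMGCS1, MVK, SREBF1, LSS and NSDHL held under every alternative run. Single libraries ended those of HSD17B7 (adjusted p up to 0.179, without H460 Combo 1), SQLE (0.0860, without H460 Combo 1), STARD4 (0.138, without H460 Combo 2) and LBR (0.228, without H1703 Combo 1).

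Between the non-responsive lines, HCC827 minus H441, INSIG1 (-2.24) and HMGCS1 (-1.92) were widest. FDFT1 (-1.36), IDI1 (-1.32), MSMO1 (-1.25), SQLE (-1.16), ACAT2 (-0.98), LBR (-0.86), NSDHL (-0.72) and FDPS (-0.55) were also lower in HCC827. The calls of INSIG1, HMGCS1 and FDFT1 held under every alternative run. Single libraries ended those of ACAT2 (adjusted p up to 0.175) and LBR (0.203), both without HCC827 Combo 2, and those of MSMO1 (0.104) and NSDHL (0.116), both without H441 Vehicle 1. That of FDPS was lost with adjusted p up to 0.139, without HCC827 Vehicle 2 or HCC827 Combo 2. INSIG1 and HMGCS1 thus differed within both classes and were not called between them.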

How the results depend on the processing

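No member change or difference that was called changed sign under any alternative run, while small ones that were not called did, and the median over the 26 genes in H441 (-0.03) was 0.02 without H441 Vehicle 2 and near 0 without H441 Combo 2. In H1703 that median was -0.69 with median centring against -0.44. In H441 the count of 1 called member was 2 with limma voom on the recovered reads. It was 0 with only that line's libraries in the fit, where 0 of all 23968 genes tested were called. Without trend and robust settings, 3455 of all genes instead of 4579 differed between H460 and H1703, and 102 instead of 481 between HCC827 and H441. The 12 members that differed between H460 and H1703 then became 7, and the 10 that differed between HCC827 and H441 became 3. Leaving out 1 library in turn gave 5 to 13 for the latter. Over the same fits the called members numbered 17 to 22 in H460, 12 to 16 in H1703, 16 to 20 in HCC827 and 1 in H441, and 11 to 17 for the class difference. The cause was not tested. The calls in single lines held under every alternative run for 16 of 20 members in H460, 11 of 15 in H1703, 13 of 19 in HCC827 and 0 of 1 in H441. With median centring, the class difference over all genes went from 2683 higher and 2911 lower to 1442 and 4591. Among the 26 members it went from 2 higher and 10 lower to 0 and 16. In the fit with the replicate number as a block, 286 of 286 member results kept their side of the threshold, and 23 members instead of 22 differed among the lines. Within each line, the difference between the replicates in vehicle correlated with that in the combination at r of 0.014 to 0.032 across genes. No shared deviation by replicate number was thus seen. It cannot tell whether libraries of the same number were prepared together, since counting noise in genes of few reads lowers r. Depth limits the genes of few reads, CYP51A1 most.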
